A study of Saccharomyces cerevisiae with 4 samples.

Results

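CRG1, PRM5, ECM34, AFB1, NFG1, YBR071W and YPL088W are 7 yeast genes whose transcripts were higher in cells exposed to Congo Red and whose part in building the cell wall is little known. They were taken by name from the 353 genes named on a microarray of cell wall genes, and all 7 were found there, each as 2 spots. The genes were chosen by their mean log2 ratio on these same 4 arrays, so their ratios are given as a description, with no test of the rise. The rule has no numerical threshold.

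The cells were Saccharomyces cerevisiae BY4741, a laboratory strain of mating type a, with HOG1 deleted. Congo Red was added at 30 µg/ml to one share of a culture in YEPD, a rich medium, at 24 °C. RNA of treated and untreated cells, collected after 4 h, was hybridised together on each of 4 two-channel arrays. Arrays 1 and 3 carried the treated RNA in channel 2, and arrays 2 and 4 carried it in channel 1. Treated and untreated cells both lack HOG1, and a HOG1 wild-type strain was not analysed here. The sources used here do not say whether each array had its own culture, so the p-values rest on a spread between arrays that could be technical. HOG1 itself (YLR113W) varied over the arrays, at 1.43, -1.73, -0.23 and 1.25 in array order. Whether its probe lies within the deletion is not stated, so these log2 ratios do not check it.

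Congo Red binds chitin and glucan chains and disturbs their assembly into the wall. Yeast answers such damage through the cell wall integrity pathway, in which membrane sensors activate the GTPase Rho1, protein kinase C and the MAP kinase Slt2. Slt2 in turn activates the transcription factor Rlm1. Hog1 is the MAP kinase of a separate pathway, which answers to high osmolarity. Of the 7 genes, PRM5 is widely used as a marker of Rlm1 activity. For the others a direct role in the wall is not established, as far as background knowledge goes.

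Each deposited value is the log2 ratio of one channel to the other for a spot, so 1 unit is a 2-fold difference. Which RNA is the numerator is not stated. The Congo Red RNA was taken for it, a likely direction only, because genes known to answer to wall damage are then higher. With the opposite numerator each rise below is a fall. Arrays of opposite channel order correlated positively over genes with 4 values (mean Pearson's r 0.40 across genes, which are not independent replicates) and over all spots (0.15), and values were used as deposited. Arrays of the same order correlated more closely, at a mean r of 0.74 over those genes and 0.73 over spots. Array medians over genes lay between -0.12 and 0.23. A ratio of bulk RNA cannot tell more transcript per cell from more cells that carry it, and it gives no level of a gene.

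Among the 7 genes, CRG1 had the highest ratio of those measured on every array, followed by PRM5, NFG1, YBR071W and AFB1. These 5 genes had values for both spots on all arrays. All 5 were above 0 on each array, as were 27.7% of the 328 genes with 4 values. Of the 6 genes measured on at least 3 arrays, 5 had a mean log2 ratio of at least 1, against a background of 10.6% of 348 genes. The genes were picked for these ratios, so the counts describe the choice.

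**Figure D1:**
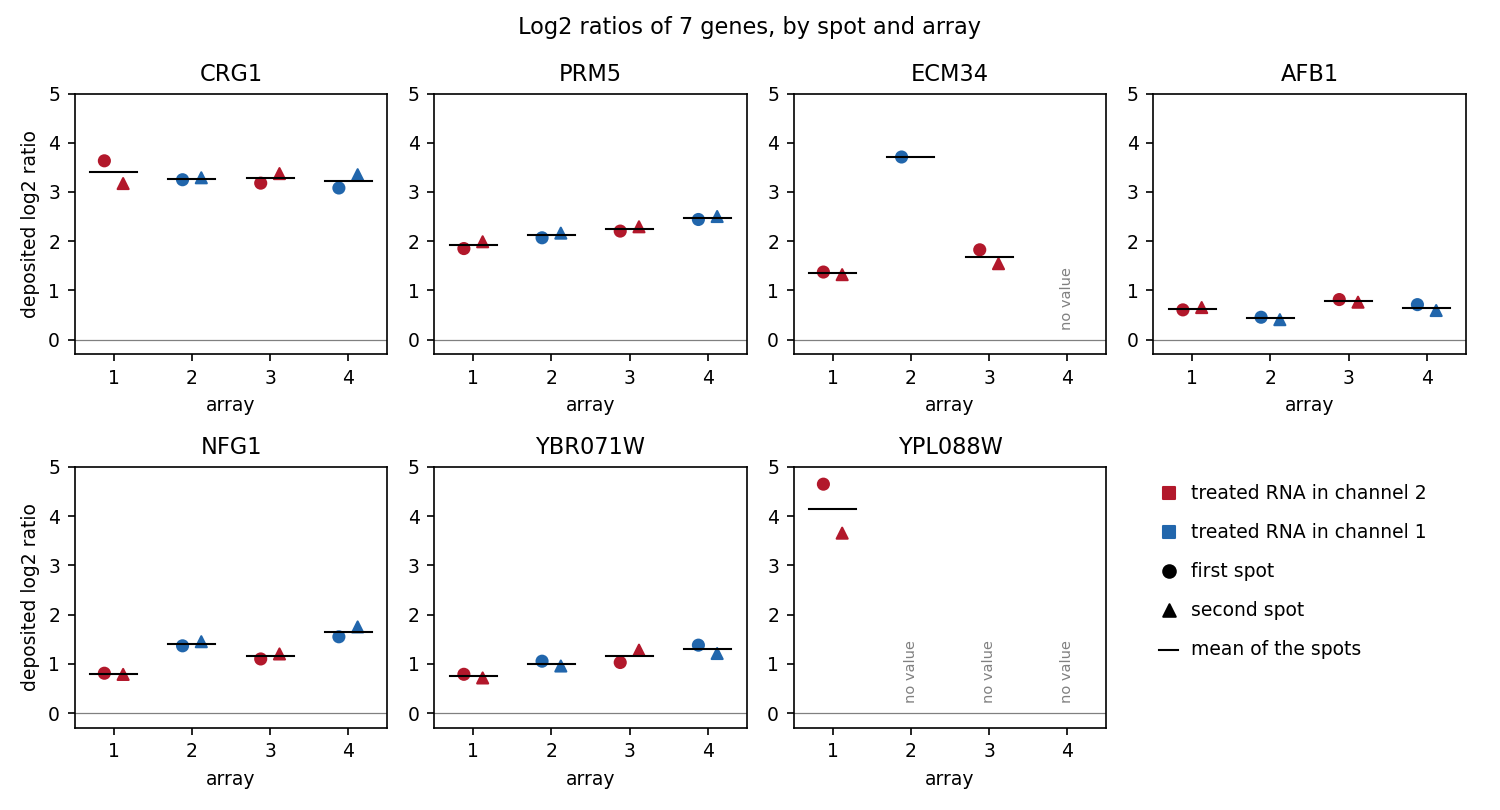
Deposited log2 ratio (vertical axis) of each spot of the 7 genes on arrays 1 to 4 (horizontal axis), with colour for the channel of the treated RNA and a bar at the mean of the spots. CRG1 sits near 3.3 on every array, ECM34 stands at 3.71 on array 2 from a single spot, and YPL088W has values on array 1 only.

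CRG1 (YHR209W) encodes an S-adenosylmethionine-dependent methyltransferase, known for methylating the toxin cantharidin and so giving resistance to it. Its log2 ratios were 3.40, 3.27, 3.28 and 3.22 in array order. The arrays lay within 0.19 of each other, with array 1 highest. The mean was 3.29 ± 0.08 (SD, n = 4), or 9.78-fold. It ranked second of 348 genes by its mean, and between 2 and 4 on each single array. The spread over arrays was the sixth smallest of 328 genes, whose median SD was 0.28. The small spread was not matched between duplicate spots, which lay up to 0.46 apart (array 1, 3.63 and 3.17). The mean SD of the CRG1 duplicates was 0.17, against a median of 0.06. When each array was centred on its median, the SD of CRG1 went from 0.08 to 0.17 and its place from 6 to 108 of 328. The closeness of the deposited CRG1 values therefore holds only on the deposited scale, while the mean changed only to 3.24.

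PRM5 (YIL117C) encodes a membrane protein first named as a gene regulated by pheromone. It had log2 ratios of 1.92, 2.12, 2.25 and 2.47. Array 4 was highest and array 1 lowest. The mean was 2.19 ± 0.23 (SD, n = 4), or 4.56-fold, and duplicate spots differed by at most 0.14. PRM5 has a relative of similar sequence, YNL058C, which was also spotted. YNL058C had log2 ratios of 1.02, 1.30, 1.39 and 1.48, in the same order of arrays as PRM5. It rose 2.45-fold (log2 1.30 ± 0.20, SD, n = 4; limma adjusted p = 0.00354). The difference of PRM5 over YNL058C was 0.89 ± 0.08 (SD, n = 4), a smaller spread than that of either gene. This is not particular to the pair. The difference from YBR071W, not listed as a relative, had a smaller SD for both PRM5 (0.04) and YNL058C (0.05). Whether the probes distinguish PRM5 from YNL058C is not stated. The other gene on the chip with a PRM name, PRM10, did not pass, with a mean log2 ratio of 0.01 ± 1.24 (SD, n = 4). Its values were 1.26, -0.59, 0.79 and -1.44 in array order. The mean thus averages opposite signs in the 2 channel orders, which differed (limma test of channel order, adjusted p = 0.0276).

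NFG1 (YLR042C), named as a negative regulator of filamentous growth, had log2 ratios of 0.80, 1.41, 1.15 and 1.65. Arrays 2 and 4, with the treated RNA in channel 1, were the highest. The mean was 1.25 ± 0.37 (SD, n = 4), or 2.38-fold. Duplicate spots lay within 0.20 of each other, so the spread over arrays was larger than that on an array.

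AFB1 (YLR040C) is named for the a-factor barrier, a secreted protein described in cells of mating type alpha that binds the pheromone a-factor. BY4741 is of mating type a, and the ratio does not say how much AFB1 transcript these cells held. Its log2 ratios were 0.63, 0.43, 0.79 and 0.65, the lowest values of the 7 genes on each array. The mean was 0.62 ± 0.15 (SD, n = 4), or 1.54-fold. AFB1 followed the array medians: after centring, its values were 0.61, 0.54, 0.56 and 0.57, with an SD of 0.03. That was the smallest spread of the 328 genes on the centred scale, while on the deposited scale its SD of 0.15 was in place 49.

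YBR071W has a systematic name only and encodes a protein of unknown function. It had log2 ratios of 0.75, 1.01, 1.15 and 1.30. Array 4 was highest and array 1 lowest, as for PRM5. The mean was 1.05 ± 0.23 (SD, n = 4), or 2.07-fold. On each array YBR071W lay below PRM5 by nearly the same amount, 1.14 ± 0.04 (SD, n = 4). Of the 15 named genes with a systematic name only, YPL088W and YBR071W are described here. Of the other 13, all tested, 4 rose (YCL049C, YMR315W, YNL058C and YNR065C) and 1 fell (YGR079W). YNL058C kept its call with any 1 array left out. YCL049C (log2 0.44 ± 0.13) and YGR079W (-0.52 ± 0.08) lost it without any 1 of the 4 arrays, YMR315W (0.67 ± 0.24) without array 1, 3 or 4, and YNR065C (0.73 ± 0.23) without array 1, 2 or 3. The median log2 ratio of the 13 was -0.02, against 0.01 for all 342 tested genes outside the 7. Over all 348 genes 17% were higher and 3.74% lower (limma adjusted p under 0.05).

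ECM34 (YHL043W) takes its name from a screen for mutants with altered sensitivity to the wall dye calcofluor white, and belongs to a family of related genes found mostly near chromosome ends. Of its 8 possible spot values, 3 were missing, namely 1 spot on array 2 and both on array 4. Its log2 ratios were 1.35, 3.71 and 1.68 on arrays 1, 2 and 3. Arrays 1 and 3 lay close together, and array 2, read from a single spot, was far above them. The mean was 2.25 ± 1.28 (SD, n = 3), or 4.74-fold. The median over its 5 spot values was 1.54, or 2.91-fold. Without array 2 the mean was 1.51, or 2.86-fold, so 1 spot decides how large the rise is. The chip carried 25 other named genes with an ECM name. Of the 24 tested, 2 rose (ECM18 and ECM32) and 0 fell in limma, with 3 higher and 3 lower at an unadjusted p under 0.05. The background was 17% higher and 3.74% lower, and at an unadjusted p 80 higher and 27 lower of 342 genes. ECM32 rose 2.16-fold, while ECM18 (log2 0.46 ± 0.10) lost its call without any 1 array and after centring (limma adjusted p = 0.0587). The median log2 ratio of the 24 was -0.02. None of the COS genes, to which ECM34 is related, was found among the named genes of the chip.

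YPL088W encodes a putative aryl alcohol dehydrogenase, named so from its sequence. It had a value on array 1 only, at 4.65 for one spot and 3.66 for the other. These differ by 1.00, the widest gap between duplicates among the 7 genes. The mean of 4.15, or 17.8-fold, comes from 1 array with the treated RNA in channel 2, and has no replicate check. It was the second highest of 346 genes on that array. No aryl alcohol dehydrogenase gene of the AAD family was found among the named genes of the chip, nor was TMT1, a methyltransferase gene related to CRG1.

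The missing values were not spread evenly over the 7 genes. Of 56 possible spot values 9 were missing, all of them for ECM34 and YPL088W. Of the 14 spots of the 7 genes, 10 (71.4%) had a value on every array, against 89.5% of all 724 named spots. Among the 353 named genes, 328 had a mean on every array. Values were missing on at least 1 array for 25 genes. For 13 of these they were missing only where the treated RNA was in channel 1, as for ECM34, and for 9 only where it was in channel 2. For the other 3, which include YPL088W, both orders were affected. Spots of other genes with a value on all 4 arrays had a median absolute mean log2 ratio of 0.25, and 8 of 638 were above 2. Of those with 3 values, 1 of 51 was above 2, and of those with 2 values, 2 of 15. Apart from YPL088W, 2 spots had a value on 1 array only, at most 1.29 in size. The spots above 2 with values on 2 arrays belong to KDX1 (YKL161C), a kinase-like gene related to SLT2 and named here after its values were seen. KDX1 had log2 ratios of 4.26 and 4.79 on arrays 1 and 3 and no value on arrays 2 and 4. Why a value is missing is not stated, and the part of dim spots in these ratios was not tested.

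**Figure D2:**
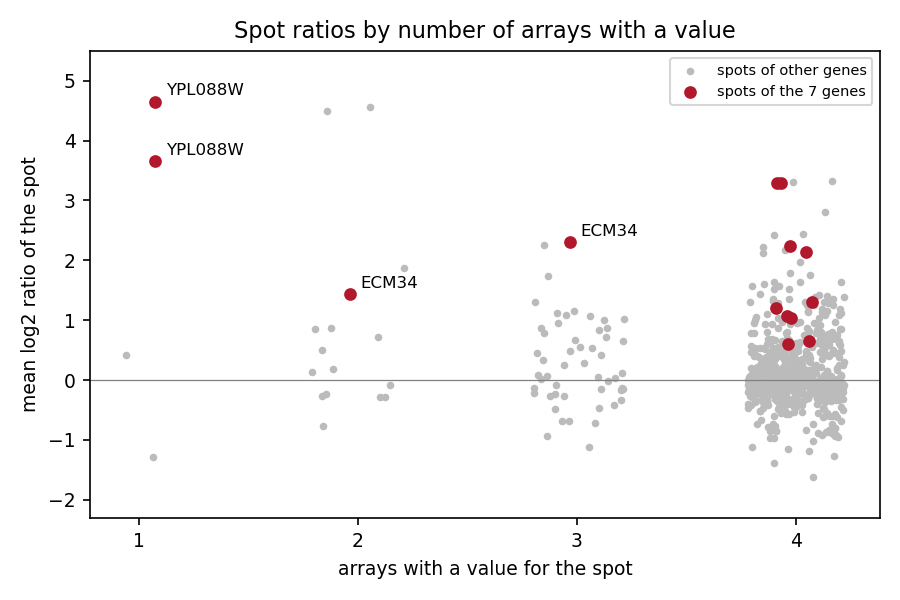
Mean log2 ratio of each named spot (vertical axis) by the number of arrays with a value for it (horizontal axis, points spread sideways for legibility). The spots of YPL088W, at 4.65 and 3.66, are 2 of the 4 named spots with a value on 1 array only, and the highest points among spots with 2 values belong to KDX1.

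Whether the ratios differed between channel orders is a separate contrast from the mean used to choose the genes, and was tested in limma over 348 genes. The test passed for 6.61% of them. Of the 6 genes with enough values, it passed for ECM34, where it has no replicate check. The ratio of ECM34 was lower with the treated RNA in channel 2 (1.51, arrays 1 and 3) than with it in channel 1 (3.71, array 2 alone), a difference of -2.20 ± 0.31 (SE; limma adjusted p = 0.0239). The array of channel 1 is alone and its value is a single spot. The SE and p therefore assume that it varies like arrays 1 and 3 and the other genes, and do not show that the channel orders differ for ECM34. NFG1 was lower by 0.56 in channel 2 (0.97 against 1.53), with a difference of -0.56 ± 0.24 (SE) that did not pass (limma adjusted p = 0.217). It passed when the arrays were centred (difference -0.69, limma adjusted p = 0.0442), but not when they were centred and scaled (-0.53, limma adjusted p = 0.0834) or with any 1 array left out (limma adjusted p from 0.278 to 0.912). PRM5 and YBR071W had differences of -0.21 ± 0.25 and -0.20 ± 0.25 (SE), and AFB1 and CRG1 of 0.17 ± 0.22 and 0.10 ± 0.21. None of these 4 passed, with limma adjusted p from 0.679 to 0.776. The values of the channel orders did not overlap for CRG1 and NFG1, 2 of the 5 genes with 4 values, against a background of 55.8% of 328 genes.

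**Figure D3:**
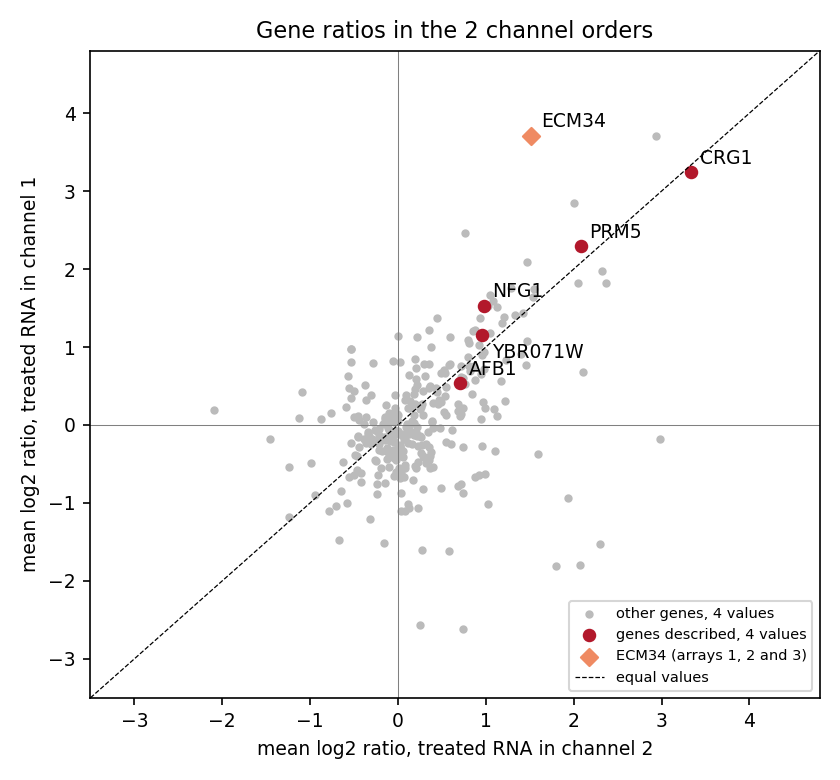
Mean log2 ratio of each gene on arrays 1 and 3 (treated RNA in channel 2, horizontal axis) and on arrays 2 and 4 (channel 1, vertical axis), with a dashed line where the values are equal. CRG1, PRM5, AFB1 and YBR071W lie near the line, NFG1 lies above it, and ECM34, whose vertical value is array 2 alone, lies far above it.

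Neighbours on the chromosome were read from the order of protein-coding genes in the R64 assembly of the yeast genome. AFB1 and NFG1 are adjacent on chromosome XII, both on the Crick strand by their systematic names. NFG1 was higher than AFB1 on 4 of 4 arrays, with AFB1 minus NFG1 at -0.17, -0.98, -0.36 and -1. Their gap was wider where the treated RNA was in channel 1. Of 23 adjacent pairs in which both genes were tested, this pair and YPS1 with YPS3 were the 2 in which both genes had a mean log2 ratio of at least 0.5. AFB1 and NFG1 were both picked for their ratios, so their place among these pairs describes the choice. The absolute difference between AFB1 and NFG1 was 0.63, near the median of 0.71 over the 23 pairs.

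YPL088W lies beside RLM1 (YPL089C) on chromosome XVI, on the opposite strand, so the genes are transcribed away from each other. RLM1, the gene of the transcription factor activated by Slt2, had log2 ratios of 1.02, 1.57, 1.14 and 1.60 and rose 2.52-fold (log2 1.33 ± 0.30, SD, n = 4; limma adjusted p = 0.00504). On array 1, where both have a value, YPL088W was 3.14 above RLM1. YBR071W lies beside HSP26 (YBR072W), a small heat shock protein gene, on chromosome II and on the same strand. HSP26 had log2 ratios of -1.01, -1.29, -0.56 and -0.92, opposite in sign to YBR071W on each array. HSP26 fell (log2 -0.94 ± 0.30, SD, n = 4; limma adjusted p = 0.0134), a call lost without array 1 (log2 -0.92, limma adjusted p = 0.0572). The other genes next to the 7 were not among the named genes of the chip.

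**Figure D4:**
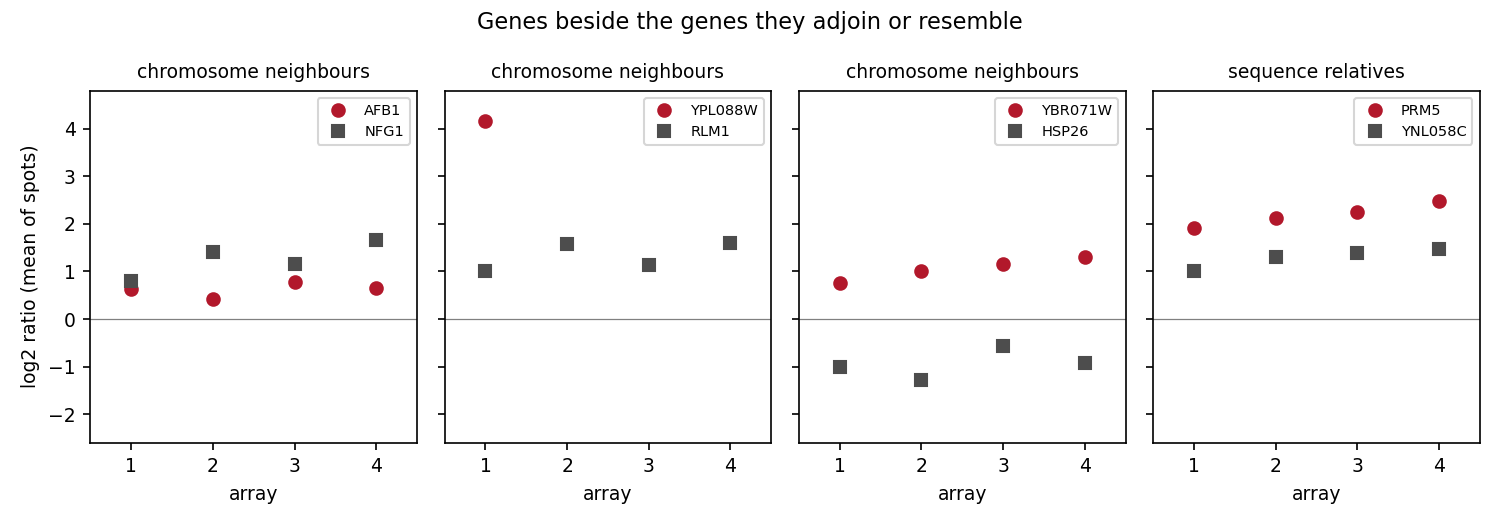
Log2 ratio (vertical axis, mean of spots) on arrays 1 to 4 (horizontal axis) for 5 of the 7 genes, each beside a gene that adjoins it or resembles it in sequence. NFG1 lies above AFB1 on every array, HSP26 lies below 0 where YBR071W lies above it, and PRM5 keeps a nearly constant distance of 0.89 from YNL058C.

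Genes of the cell wall integrity response, a list written from general knowledge with earlier results of these data known and without the 7 genes, give the frame for these ratios. Of 26 listed genes 25 were on the chip and 24 were tested. Of these 24, 19 were higher and 0 lower (limma adjusted p under 0.05), and 23 were higher and 0 lower at an unadjusted p under 0.05. The background was 17% of all genes higher, and at an unadjusted p 80 of 342 genes. The direction of these counts is no independent finding, since the numerator was taken to be the RNA that makes such genes higher. Their median log2 ratio was 1.28 and their range 0.40 to 3.32, against a median of 0.01 for all tested genes outside the 7. SLT2 rose 3.01-fold (log2 1.59 ± 0.12), PST1, which encodes a surface protein, 3.13-fold (1.64 ± 0.23), and CRH1, which links chitin to glucan, 2.49-fold (1.32 ± 0.26). On this scale CRG1 lay just under CWP1, the highest tested gene of the list (3.32 ± 0.49). NFG1 and YBR071W lay below the list's median and AFB1 at less than 1 unit. KDX1, a listed gene with too few values to be tested, lay above both CWP1 and CRG1, at 4.26 and 4.79 on arrays 1 and 3.

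The genes with the most similar ratios were found by the root mean square difference over shared arrays. The nearest to CRG1 were CWP1, a wall mannoprotein gene, at 0.49 and YPS3, a yapsin protease gene, at 1.00. CRG1 thus had no close match, and CWP1, at 2.69, 3.80, 3.17 and 3.62, varied far more over the arrays. PRM5 was nearest to KTR2, a mannosyltransferase gene (0.31), and YPS3 (0.41). NFG1 was nearest to PIR3, a wall protein gene (0.12), and RLM1 (0.14). For PIR3 and RLM1, too, arrays 2 and 4 were the highest, at 1.61 and 1.73 for PIR3.

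YBR071W was nearest to TOH1 (0.08) and to ECM32, a helicase gene (0.09). TOH1 had a mean log2 ratio of 1.05 ± 0.28 and ECM32 of 1.11 ± 0.22 (SD, n = 4). AFB1 was nearest to EXG1, an exoglucanase gene (0.08), and VTH1, named for likeness to a vacuolar sorting receptor (0.09). EXG1 and VTH1 had means of 0.61 ± 0.24 and 0.64 ± 0.15, and each lost its call without array 1, 3 or 4. ECM34 was nearest to YPS3 (0.66) and GSC2, a glucan synthase gene (0.75), over 3 arrays. YPL088W had too few values for this comparison. Likeness over 4 arrays is a description, since genes of like mean lie close together.

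**Figure D5:**
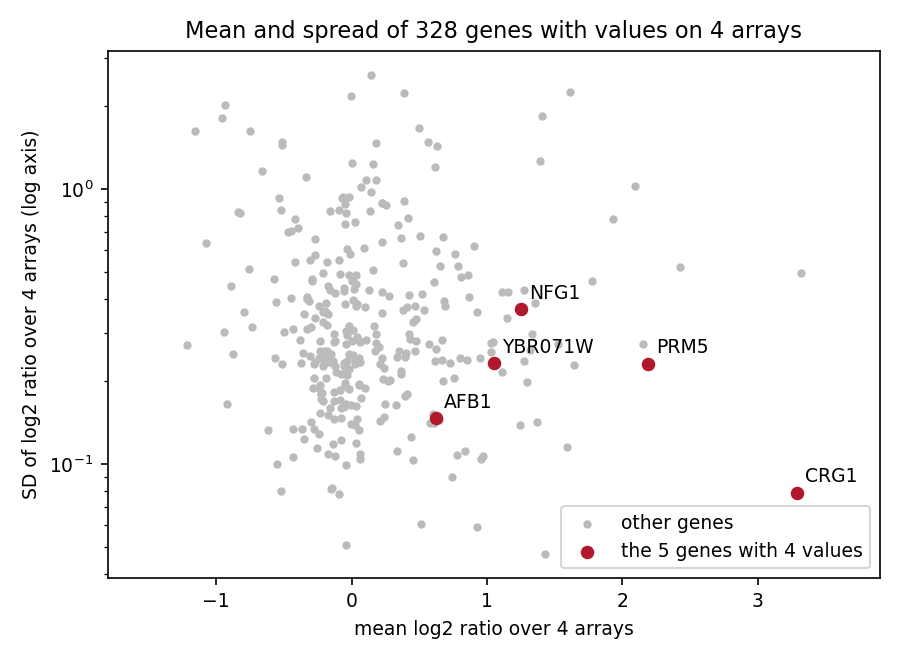
Mean log2 ratio over 4 arrays (horizontal axis) and its SD (vertical axis, log scale) of the 328 genes with values on all arrays, with the 5 described genes in red. CRG1 joins a mean of 3.29 with an SD of 0.08, while the SD of AFB1, PRM5, YBR071W and NFG1 runs from 0.15 to 0.37.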

How the data were processed

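The authors deposited log2 ratios of the 2 channels for 896 spots on 4 arrays. Base 2 was inferred from the values: 58, 57 and 36 of them on arrays 1 to 3 matched, within 0.00011, log2 of the quotient of different integers from 1 to 10. Under a natural logarithm at most 5 values per array matched, and under log10 at most 9. The rounding of array 4 prevents this check. How the arrays were scanned, corrected, normalized and filtered, and which channel is the numerator, is not stated. Signal intensities were not analysed here. Spots were named through the platform's old annotation: 724 have 1 gene, 10 several and 162 none, giving 353 genes, all matched in the R64 gene table, which was used for names and gene order only. Spots of a gene were averaged on each array.

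Genes with values on at least 3 arrays (348) were tested against 0 with limma 3.58.1 (R 4.3.3; lmFit, eBayes), and p-values were adjusted by Benjamini-Hochberg over all of them at a threshold of 0.05. Channel order was tested by adding a coefficient for it. The fit with the channel order coefficient was tested on simulated data, in which every gene was complete and had the same spread. The fit without that coefficient was not tested on simulated data. The number of arrays limits the precision. Named genes were the 7 genes, the 2 genes nearest to each, sequence relatives and chromosome neighbours on the chip, and SLT2, RLM1, CWP1, PST1, CRH1 and YNL058C. Genes with a systematic or ECM name, PRM10, YPS1, HOG1 and KDX1 are named outside this rule. The members and lists were chosen with earlier results of these data known. Promoter and protein sequences were not analysed here. Alternatives were centring, scaling, the other turning of arrays 2 and 4, a channel order term, complete genes, medians of spots, and each array left out. Python 3.11.15 and matplotlib 3.10.9 were used for figures.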

Additional observations from a re-analysis of the deposited data

Results flagged for a closer look

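Among 20 named genes with values on 4 arrays, SLT2 had a single array far from the other 3, at a log2 ratio of 1.42 on array 1. Chance alone marks about 1 in 20 such genes. ECM34 differed between channel orders by -2.20 (channel 2 minus channel 1), but the value for channel 1 is 1 spot of array 2, so the difference has no replicate check.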

How the results depend on the processing

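The means of the 6 genes with values on at least 3 arrays kept their sign and moved by less than their SD under centring, scaling and medians of spots. Leaving out an array cannot fail this check. Every value of these genes was above 0, and dropping 1 array cannot move a mean by its SD. For ECM34, with its large SD, leaving out an array gave folds from 2.86 to 6.48 around 4.74. YPL088W, with no SD over arrays, had 4.15 as deposited, 4.14 after centring and 4.22 after scaling. With arrays 2 and 4 turned, PRM5 went to -0.10, ECM34 to -0.23, NFG1 to -0.28 and YBR071W to -0.10, CRG1 to 0.05 and AFB1 to 0.08. YPL088W cannot be checked this way, since its only value is on array 1. Under that turning the named genes CWP1 (-0.39), YPS3 (-0.43), GSC2 (-0.31), PIR3 (-0.31), RLM1 (-0.25), CRH1 (-0.19), TOH1 (-0.17), PST1 (-0.095), YNL058C (-0.090), ECM32 (-0.069), SLT2 (-0.058), YCL049C (-0.067), ECM18 (-0.020), YGR079W (0.056) and HSP26 (0.16) changed sign, and limma called 0 genes higher, 0 lower and 0 of the wall integrity list, with 33 genes at an unadjusted p under 0.05. For a gene with 4 values, the turned mean is the difference between channel orders divided by 2. It therefore repeats that contrast, and ratios of like size in both orders cancel.

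The wall integrity list had 16 to 20 genes higher with each array left out. Over all genes, 59 were higher and 13 lower. Centring gave 60 and 23, scaling 63 and 30, and a channel order term 87 and 34. Leaving out an array gave 33 to 46 higher and 3 to 6 lower, with fewer samples. The channel order test passed for 23 genes, for 49 after centring, 48 after scaling and 11 to 30 with an array left out, lowest without array 1. The difference between channel orders changed sign for CRG1 after centring (-0.040) and for YBR071W without array 1, and passed for neither. For YBR071W it ranged from -0.40 to 0.0029 with an array left out. For CRG1 the difference was 0.097 as deposited and 0.39 after centring and scaling (limma adjusted p = 0.0886). That of ECM34 cannot be fitted without array 1, 2 or 3. The ratio within each array already pairs treated with untreated RNA, so no further block was fitted.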
